A study of Mus musculus with 9 samples.

Results

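The genes described are 10 antimicrobial and acute-phase proteins that the intestinal epithelium makes: Saa3, Saa1, Mptx1, Ang4, Retnlb, Lypd8, Reg3b, Reg3g, Reg4 and Lcn2. They were taken by name, each through the probeset annotated to it with the highest mean, and each had 1 probeset. They are 10 of the 19938 genes with a named probeset, and all 10 were among the 14953 genes tested, whose mean log2 value lay at or above 4.716, the 25th percentile over genes. The values come from Affymetrix whole-transcript arrays of RNA scraped from the colon epithelium of male C57BL/6J mice, an inbred strain, aged 9 to 11 weeks. The 4 heme pools came from mice that ate 0.2 µmol heme per g in a high-fat control diet, in which fat gave 40% of the energy, for 2, 4, 7 or 14 days, with 1 pool for each day. Heme is the iron-containing pigment of red meat. The 5 control pools came from mice on the same diet without heme at days 0, 2, 4, 7 and 14. All mice had first eaten that high-fat control diet for 1 week, so neither group shows a low-fat baseline, and day 0 has no heme pool. All but 1 pool mixed RNA of 4 mice. The day 2 control pool mixed 3, because 1 mouse had died. A diet and day is therefore 1 array with no replicate, and the pools of different days stand as the replicates of a diet, so every error below holds both chance and change over days.

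The colon keeps its bacteria away from the epithelium with mucus and with secreted proteins. Goblet cells and deep crypt secretory cells release much of this material, while absorptive colonocytes add others. Reg3 lectins and serum amyloid proteins are known to depend on microbial signals and on interleukin-22, and goblet-cell products such as Retnlb on the type 2 cytokines interleukin-4 and interleukin-13. Acute-phase proteins are those whose output changes in inflammation, in the liver for the blood and in the gut epithelium locally.

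The scrapings carried the epithelial markers at a high level in every pool. Epcam lay between 11.63 and 11.75 log2 in heme pools and between 11.71 and 11.75 in control pools, and the array medians over all probesets lay between 5.895 and 5.963 log2. Both day 2 pools also carried pancreatic genes. The mean of 12 exocrine pancreas markers was 9.43 log2 in the heme pool and 8.73 in the control pool of day 2, and at most 5.24 in the other pools. The smooth muscle markers were highest in the day 7 pools, with a mean of 8.85 log2 in the heme pool and 9.48 in the control pool, against a lowest value of 6.95 in heme pools and 7.06 in control pools. In such mixtures fewer cells of a type and less RNA per cell cannot be told apart.

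Saa3 was the only member called lower in heme pools, and several alternative fits given below lost that call. Saa3 passed the test in the comparison of 4 heme with 5 control pools (limma with Benjamini-Hochberg adjustment over 14953 genes, adjusted p under 0.05), and the other 9 did not. Of all genes tested, 0.0736% were called lower in heme pools and 0.669% were called in either direction. At an unadjusted p under 0.05, limma gave 4 members (Saa3, Mptx1, Saa1 and Ang4) and 2547 of all genes (17.0%). Day by day, 6, 7, 6 and 8 of the 10 members were lower in the heme pool than in the control pool on days 2, 4, 7 and 14, against 47.2%, 40.9%, 51.6% and 52.3% of all genes. The median log2 difference was -0.29 over the members and -0.002 over all genes tested. These counts and medians are a description, since the members were chosen with earlier results of these data known and several moved together.

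**Figure D1:**
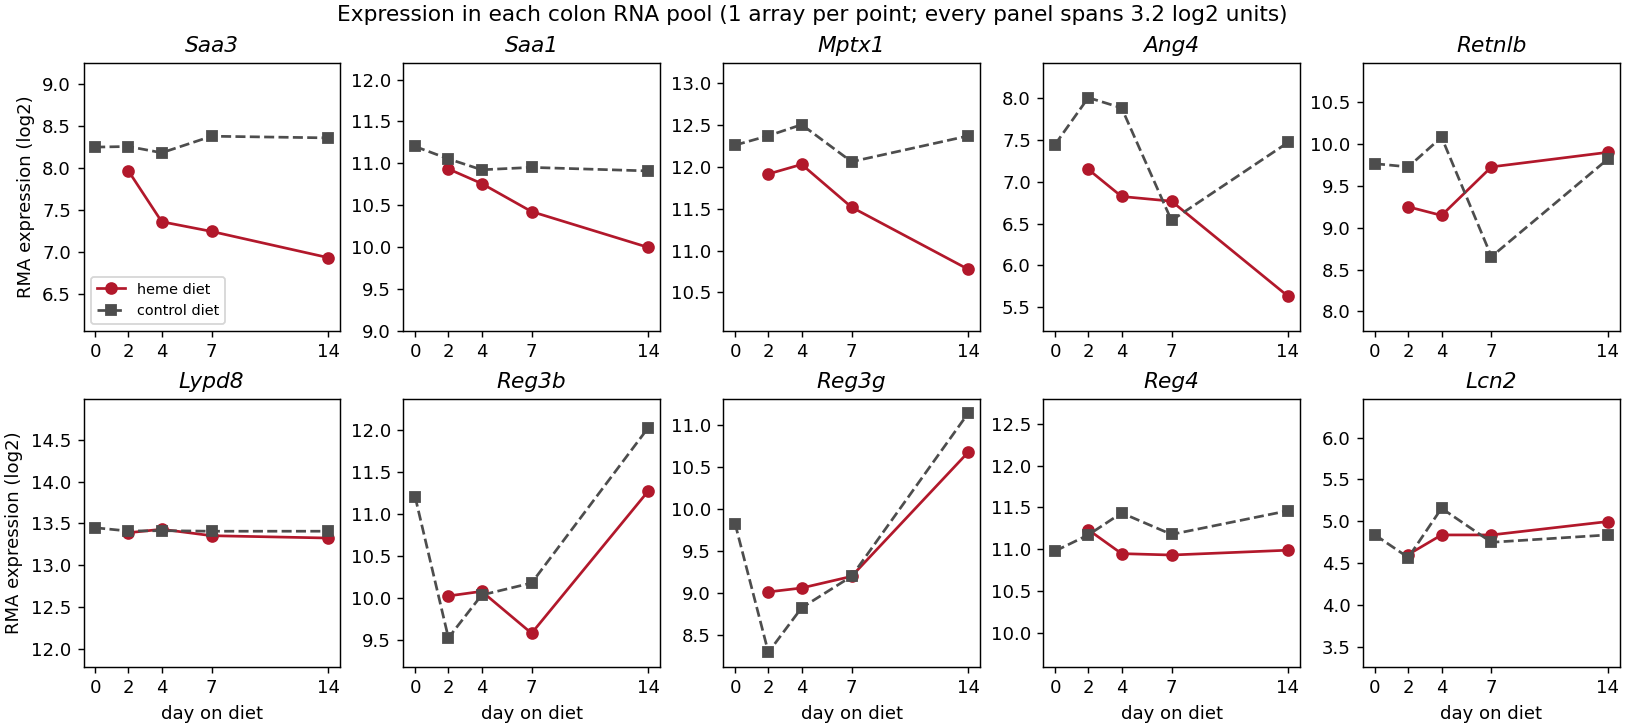
Log2 expression of each member (vertical axis) against day on diet (horizontal axis), with 1 point per pool; heme pools are drawn first and control pools second in the legend. Saa3 and Mptx1 lie lower in every heme pool than in any control pool, while Reg3b and Reg3g are highest on day 14 in both diets.

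The serum amyloid A proteins bind lipid and retinol. In the mouse Saa3 is made mainly outside the liver, and Saa1 is made both in the liver and in the gut epithelium. Saa3 is read by probeset 10563597 in the gene at chr7:46711998-46719615, and Saa1 by probeset 10563611 in the gene at chr7:46740497-46743181, both in build GRCm38.p6. Saa3 measured 7.97, 7.36, 7.24 and 6.93 log2 in the heme pools of days 2, 4, 7 and 14. It measured 8.25, 8.26, 8.18, 8.38 and 8.36 log2 in the control pools of days 0, 2, 4, 7 and 14. The groups did not overlap, the control pools stayed within 0.20 log2 of each other, and each later heme pool was lower than the one before. The mean was 7.37 ± 0.43 in heme pools (SD, n = 4) and 8.29 ± 0.08 in control pools (SD, n = 5). The log2 difference was -0.91 (SE 0.16, 95% interval -1.28 to -0.55), a 1.88-fold lower level in heme pools, with an adjusted p of 0.0398 in limma. An exact two-sided permutation test of the diet labels over the 9 pools gave p = 0.00794, the smallest it can give. The call was kept without the day 2 heme pool (adjusted p = 0.00115) and lost without any 1 of the other 8 pools (adjusted p between 0.0765 and 0.154). It was also lost with day as a replicate block, at a difference of -0.92 and an adjusted p of 0.0826 in limma. The difference was -1.12 without both day 2 pools, those with pancreatic RNA (adjusted p = 0.0040 in limma), and -0.85 without both day 7 pools, those with the most smooth muscle RNA (adjusted p = 0.326 in limma). Macrophages and adipocytes can also make Saa3. The mean of 9 macrophage markers lay between 6.34 and 7.04 log2 in heme pools and between 6.53 and 7.27 in control pools, and that of 5 adipocyte markers between 5.95 and 6.13 in heme pools and between 5.51 and 6.00 in control pools. All 9 macrophage markers were lower in heme pools, with a median log2 difference of -0.09 against -0.002 over all genes tested. Of 4 adipocyte markers tested, 3 were higher and 1 lower, with Cidec highest at 0.76 (adjusted p = 0.0521 in limma). None of those genes was called, and the part of those cells was not tested. Set against the control pool of the same day, Saa3 in heme pools was 1.22-fold lower on day 2, 1.77-fold on day 4, 2.20-fold on day 7 and 2.70-fold on day 14.

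Saa1 differed less. It measured 10.93, 10.76, 10.42 and 9.99 log2 in heme pools of days 2, 4, 7 and 14, and 11.20, 11.05, 10.92, 10.95 and 10.91 in control pools of days 0, 2, 4, 7 and 14. The heme pools of days 4, 7 and 14 lay below every control pool, and that of day 2 lay among them. The difference was -0.48 (SE 0.16, 95% interval -0.84 to -0.12), with an adjusted p of 0.215 in limma. The exact permutation test gave p = 0.0238. Without the heme pool of day 14 the difference was -0.30 (adjusted p = 0.375 in limma). The same-day difference was -0.12, -0.16, -0.53 and -0.91 log2 on days 2, 4, 7 and 14. Saa1 and Saa2 are near-identical in the mouse, and whether their probes share signal was not tested. Saa2 itself read close to the lower limit of the genes tested, between 4.74 and 5.07 log2 in heme pools and between 4.93 and 5.19 in control pools. Hepatocyte markers, which could bring acute-phase RNA from liver, averaged 5.24 to 5.59 log2 in heme pools and 5.16 to 5.28 in control pools, and their part in these values was not tested.

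Both genes lie on the minus strand of chromosome 7. Their windows from 250 bases before to 50 bases after the start, from RefSeq on GRCm38.p6, are printed because both members were lower in heme pools of all 4 days than in the same day's control pool. The Saa3 start used lies inside the annotated gene span. Capitals mark the C/EBP motif, searched as TTGCNNAA on both strands. It begins 99 bases upstream of the Saa3 start, on the opposite strand, and 182 bases upstream of the Saa1 start. This motif is held by 10.8% of the 32851 windows of all genes, and the Lcn2 window also holds it. Once the pair was aligned, 170 of 300 window bases (56.7%) were identical. Saa3 and Reg3b shared as many, and Saa1 and Lcn2 shared 178 (59.3%).
Saa3, chr7:46715627-46715926, minus strand: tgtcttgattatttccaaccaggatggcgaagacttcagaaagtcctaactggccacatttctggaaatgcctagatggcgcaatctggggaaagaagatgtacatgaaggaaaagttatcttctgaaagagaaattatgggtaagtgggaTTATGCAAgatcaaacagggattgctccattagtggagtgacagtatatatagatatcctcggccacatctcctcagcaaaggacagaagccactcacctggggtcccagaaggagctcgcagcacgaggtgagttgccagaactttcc
Saa1, chr7:46742931-46743230, minus strand: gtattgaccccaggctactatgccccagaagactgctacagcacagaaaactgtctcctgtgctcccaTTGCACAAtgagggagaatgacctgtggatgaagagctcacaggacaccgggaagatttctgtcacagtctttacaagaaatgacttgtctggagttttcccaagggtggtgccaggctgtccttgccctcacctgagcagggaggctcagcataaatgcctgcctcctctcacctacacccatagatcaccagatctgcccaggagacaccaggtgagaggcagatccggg

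**Figure D2:**
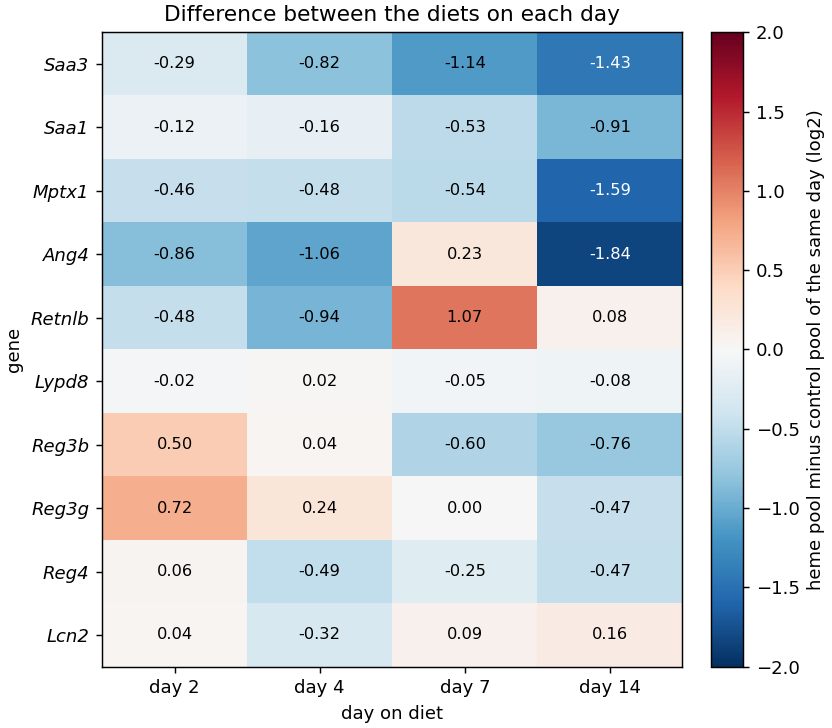
Heme minus control log2 difference between the pools of the same day (colour and printed value) for each member (rows) by day on diet (columns); each cell rests on 1 heme and 1 control pool and has no error of its own. Saa3, Saa1 and Mptx1 lie below 0 on all 4 days and lowest on day 14.

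Mptx1 is mucosal pentraxin, a member of the family of C-reactive protein and serum amyloid P. In the rat it was described as a colon transcript that dietary heme lowers. The mouse gene lies at chr1:174330518-174332877 and was read by probeset 10351959. Mptx1 measured 11.92, 12.03, 11.52 and 10.78 log2 in heme pools of days 2, 4, 7 and 14, and 12.26, 12.37, 12.51, 12.06 and 12.37 in control pools of days 0, 2, 4, 7 and 14. No heme pool reached the lowest control pool, that of day 7, and the heme pool of day 14 lay farthest below. The mean was 11.56 ± 0.57 in heme pools (SD, n = 4) and 12.31 ± 0.17 in control pools (SD, n = 5). The difference was -0.75 (SE 0.22, 95% interval -1.24 to -0.27), with an adjusted p of 0.169 in limma. The exact permutation test gave p = 0.00794. The same-day difference was -0.46, -0.48 and -0.54 log2 on days 2, 4 and 7 and -1.59 on day 14, so most of the spread among heme pools came from the last day. Without the heme pool of day 14 the difference over pools was -0.49.

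Saa3 and Mptx1 were the 2 members of 10 whose heme pools all lay below all control pools, a pattern that 2.33% of all genes showed. Saa3, Saa1 and Mptx1 were the 3 of 10 that were lower in the heme pool on each of the 4 days, against 12.0% of all genes. For each of these 3, an exact permutation test within days could not go below p = 0.125, and gave that value. The Mptx1 window on chromosome 1 is printed because that gene too was lower on all 4 days. Capitals mark the TATA motif, searched as TATAAA on both strands and held by 13.6% of all windows; both matches here lie on the opposite strand, beginning 198 and 82 bases upstream of the start. It held no match to the C/EBP motif.
Mptx1, chr1:174330268-174330567, plus strand: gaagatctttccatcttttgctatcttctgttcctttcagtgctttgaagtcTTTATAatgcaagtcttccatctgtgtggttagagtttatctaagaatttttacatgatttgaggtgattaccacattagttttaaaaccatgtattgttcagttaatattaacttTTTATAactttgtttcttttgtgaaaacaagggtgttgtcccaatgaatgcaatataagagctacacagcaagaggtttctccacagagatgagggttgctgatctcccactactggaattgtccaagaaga

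Ang4, Retnlb and Reg4 are products of the secretory lineage. Ang4 is a microbicidal ribonuclease of Paneth and goblet cells, at chr14:51763892-51773590 (probeset 10419575). It measured 7.15, 6.82, 6.77 and 5.63 log2 in heme pools of days 2, 4, 7 and 14, and 7.45, 8.01, 7.88, 6.54 and 7.47 in control pools of days 0, 2, 4, 7 and 14. The heme pool of day 14 was the lowest of all 9, but the control pool of day 7 lay below 3 of the 4 heme pools. The difference was -0.88 (SE 0.34, 95% interval -1.64 to -0.11), close in size to that of Saa3 but with a wider error, and its adjusted p was 0.259 in limma. The exact permutation test gave p = 0.0556. On day 14 the level was 3.58-fold lower in the heme pool than in the control pool. Without both pools of day 7 the difference was -1.17 log2 (adjusted p = 0.436 in limma). Without the heme pool of day 14 it was -0.55 (adjusted p = 0.524 in limma).

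Retnlb, the goblet cell protein RELM-beta, lies at chr16:48816856-48818892 (probeset 10436087). It measured 9.25, 9.15, 9.73 and 9.90 log2 in heme pools of days 2, 4, 7 and 14, and 9.77, 9.73, 10.08, 8.65 and 9.82 in control pools of days 0, 2, 4, 7 and 14. The control pool of day 7 lay below every other pool. The heme pools of days 2 and 4 lay below the other 4 control pools, and those of days 7 and 14 lay at or among them. The difference was -0.10 (SE 0.27, 95% interval -0.70 to 0.49), with an adjusted p of 0.848 in limma. The same-day differences went both ways, at -0.48, -0.94, 1.07 and 0.08 log2 on days 2, 4, 7 and 14. Its lowest value and the lowest control value of Ang4 came from the same control pool, the one with the highest smooth muscle markers, and the part of that tissue was not tested.

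Reg4 is a lectin that marks deep crypt secretory cells of the mouse colon, at chr3:98222138-98236748 (probeset 10494636). It measured 11.23, 10.95, 10.93 and 10.99 log2 in heme pools of days 2, 4, 7 and 14, and 10.98, 11.17, 11.43, 11.18 and 11.46 in control pools of days 0, 2, 4, 7 and 14. The groups overlapped, with the heme pools of days 2 and 14 inside the control range and those of days 4 and 7 below it. The difference was -0.22 (SE 0.10, 95% interval -0.44 to 0.01), with an adjusted p of 0.303 in limma.

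The markers of the cells that make these proteins were measured beside them. The mean of 7 goblet cell markers lay between 11.69 and 11.84 log2 in heme pools and between 11.75 and 11.86 in control pools. The mean of 7 deep crypt secretory and Paneth cell markers, Reg4 left out, lay between 6.56 and 6.67 in heme pools and between 6.64 and 6.87 in control pools. Of the 7 tested genes of that list, Reg4 among them, 5 were lower and 2 higher in heme pools. Their median log2 difference was -0.29, against -0.002 over all genes tested. The Paneth defensin Defa24 was below the limit for testing, between 2.31 and 2.88 in heme pools and between 2.16 and 2.61 in control pools. None of these marker genes was called by limma, and the part of cell number in the members' values was not tested. Among the markers of all lists, 1 gene was called: the colonocyte water channel Aqp8, higher in heme pools by 0.66 log2 (adjusted p = 0.0113 in limma).

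**Figure D3:**
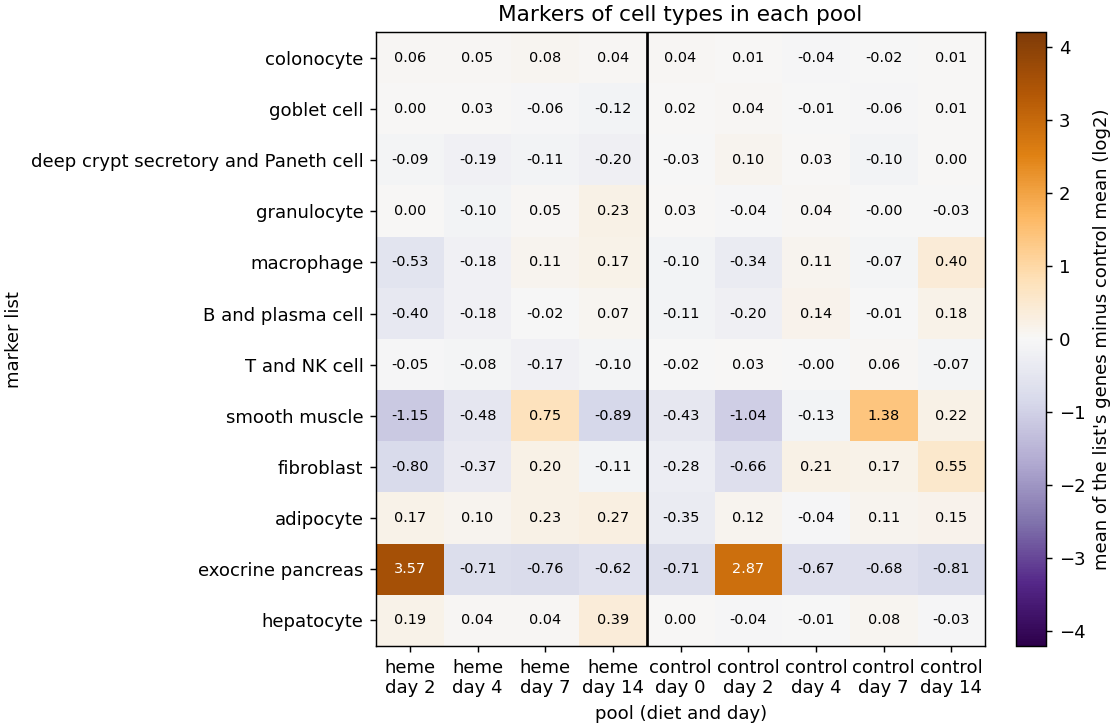
Mean of each cell type's marker genes in each pool (columns, heme pools left of control pools), as the log2 difference from the mean of the control pools (colour and printed value). The exocrine pancreas list is high in both day 2 pools. The smooth muscle list is highest in both day 7 pools and lowest in both day 2 pools and the day 14 heme pool. The goblet cell and colonocyte lists stay close to 0 on this scale. The colonocyte mean lay between 11.733 and 11.769 log2 in heme pools and between 11.654 and 11.727 in control pools. Of its 9 genes, Aqp8 among them, 4 were higher and 5 lower in heme pools.

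Lypd8 is a membrane-anchored colonocyte protein that binds bacterial flagella, at chr11:58379032-58390541 (probeset 10376366). Of the 10 members it varied least. It measured 13.39, 13.43, 13.35 and 13.33 log2 in heme pools of days 2, 4, 7 and 14, and 13.45 in the control pool of day 0 and 13.41 in each of the other 4. The difference was -0.04 (SE 0.027, 95% interval -0.10 to 0.02), with an adjusted p of 0.415 in limma. Its control pools spanned 0.042 log2, a range that 96.5% of all genes exceeded, and the heme pools of days 2, 7 and 14 lay below all of them.

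The Reg3 lectins are secreted into the mucus in response to bacteria, and Reg3g binds peptidoglycan of Gram-positive species. Reg3b lies at chr6:78370885-78373466 (probeset 10539179) and Reg3g at chr6:78466269-78468874 (probeset 10545569). Reg3b measured 10.02, 10.08, 9.58 and 11.27 log2 in heme pools of days 2, 4, 7 and 14, and 11.21, 9.52, 10.03, 10.18 and 12.03 in control pools of days 0, 2, 4, 7 and 14. Reg3g measured 9.01, 9.06, 9.20 and 10.68 in heme pools, and 9.83, 8.29, 8.82, 9.20 and 11.14 in control pools, in the same order of days. Both genes were highest on day 14 in both diets, and both were next highest in the control pool of day 0.

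The spread among control pools was wider for these genes than for almost any other. Reg3g spanned 2.86 log2 over the 5 control pools, a range that 14 of the 14953 genes exceeded, and Reg3b spanned 2.51, which 21 genes exceeded. Against that spread no diet difference was detectable. It was -0.36 for Reg3b (SE 0.50, 95% interval -1.47 to 0.76) and 0.03 for Reg3g (SE 0.55, 95% interval -1.19 to 1.25), with adjusted p-values of 0.713 and 0.982 in limma. These intervals allow a more than 2-fold difference either way for Reg3g. With day as a replicate block the standard errors were 0.19 and 0.16, the differences -0.20 and 0.12, and neither gene was called. The same-day difference was 0.50, 0.04, -0.60 and -0.76 log2 for Reg3b and 0.72, 0.24, 0.00 and -0.47 for Reg3g on days 2, 4, 7 and 14. It was thus above 0 for both on day 2 and below 0 for both on day 14. Reg3g read the same value in both day 7 pools, as median polish can give. The day 2 pools are those with pancreatic RNA, in which the pancreatic family member Reg1 read 7.65 log2 (heme) and 7.07 (control), against 4.34 to 4.81 in the other heme pools and 3.95 to 4.56 in the other control pools. Without both day 2 pools the diet difference was -0.55 for Reg3b and -0.10 for Reg3g, and neither was called by limma.

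The Reg3b and Reg3g windows on chromosome 6 are printed because the levels of those genes went together over the pools. Once aligned, the pair shared 210 of 300 bases (70.0%), while other pairs of members shared between 43.3% and 59.3%. Capitals mark TATAAA, which begins 29 bases upstream of the Reg3b start and 27 upstream of that of Reg3g, with a further match on the opposite strand 161 bases upstream in Reg3g. They also mark TTCNNNGAA, the STAT motif, 129 bases upstream in Reg3b, and the NF-kappaB motif 123 bases upstream in Reg3g. The STAT motif is held by 8.30% of all windows and the NF-kappaB motif by 4.51%, and a match describes letters, not binding.
Reg3b, chr6:78370635-78370934, plus strand: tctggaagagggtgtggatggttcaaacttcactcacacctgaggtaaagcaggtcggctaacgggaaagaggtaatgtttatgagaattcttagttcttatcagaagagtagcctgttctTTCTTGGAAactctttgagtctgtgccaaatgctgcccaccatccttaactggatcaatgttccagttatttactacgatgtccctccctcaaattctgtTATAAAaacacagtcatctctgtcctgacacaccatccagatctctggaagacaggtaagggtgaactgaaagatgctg
Reg3g, chr6:78468825-78469124, minus strand: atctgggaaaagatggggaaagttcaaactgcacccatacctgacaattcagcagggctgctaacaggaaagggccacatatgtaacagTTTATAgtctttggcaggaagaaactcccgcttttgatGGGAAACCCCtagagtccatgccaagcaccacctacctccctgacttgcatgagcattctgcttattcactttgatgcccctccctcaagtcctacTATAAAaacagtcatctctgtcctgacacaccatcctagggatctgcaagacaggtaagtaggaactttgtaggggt

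Lcn2, lipocalin 2, binds bacterial siderophores and so withholds iron, and it is a common marker of gut inflammation. It lies at chr2:32384637-32387739 (probeset 10481627). It was near the lower limit of what was tested, with 4.60, 4.84, 4.84 and 5.00 log2 in heme pools of days 2, 4, 7 and 14, and 4.84, 4.57, 5.15, 4.75 and 4.84 in control pools of days 0, 2, 4, 7 and 14. The limit was 4.716 log2, and the heme pools of days 4 and 7 and the control pools of days 0 and 14 share 1 value, as median polish can give. The difference was -0.01 (SE 0.12, 95% interval -0.27 to 0.25), with an adjusted p of 0.968 in limma. Lcn2 is also abundant in granulocytes. The mean level of 9 granulocyte markers lay between 4.24 and 4.57 log2 in heme pools and between 4.31 and 4.39 in control pools, and 5 of the 9 were below that limit.

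**Figure D4:**
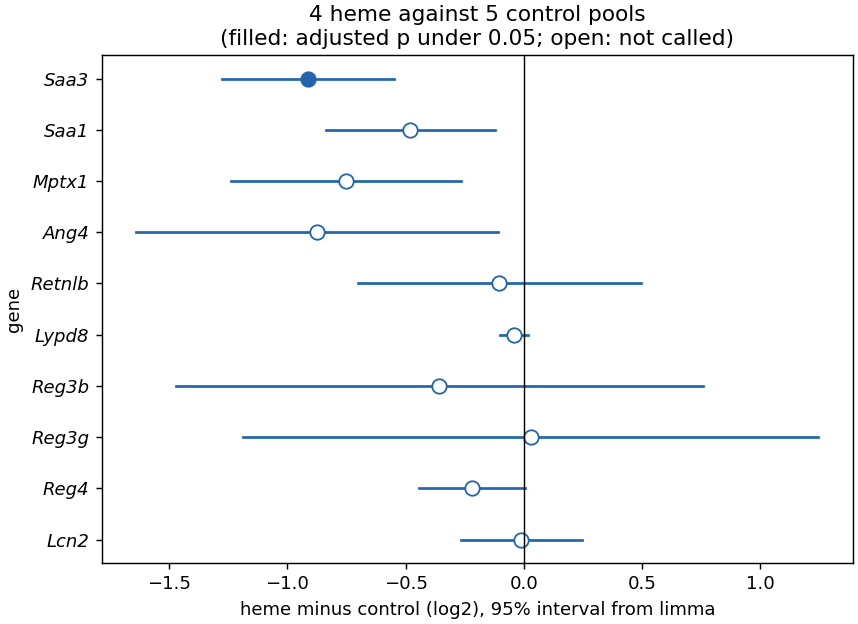
Heme minus control log2 difference of each member over 4 heme and 5 control pools (horizontal axis), with bars for the 95% interval of the limma fit. The interval of Saa3 lies between -1.28 and -0.55 and is the only one whose gene was called, and the intervals of Reg3b and Reg3g are the widest.

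Whether the diet difference differed between late and early days was asked over the 8 pools of days 2, 4, 7 and 14. The contrast is the heme minus control difference on days 7 and 14 minus that on days 2 and 4. No gene was called by limma (0% of 14953), and 990 genes (6.62%) had an unadjusted p under 0.05. Of the members, 0 of 10 were called and 3 had an unadjusted p under 0.05. These were Saa1 at -0.58 (adjusted p = 0.666), Saa3 at -0.73 (adjusted p = 0.698) and Retnlb at 1.28 (adjusted p = 0.698). Each kept its sign in every fit with 1 pool left out, but its size depended on the pools. The smallest in size were -0.36 for Saa1 (without the day 14 heme pool) and -0.42 for Saa3 (without the day 2 heme pool). For Retnlb it was 0.70, without the control pool of day 7. With day as a replicate block limma again called no gene. In that fit the late minus early difference was -0.95 for Reg3b (SE 0.14, adjusted p = 0.133 in limma). For Reg3g it was -0.71 (SE 0.19, adjusted p = 0.385 in limma). Saa3, Saa1 and Ang4 were lower in each later heme pool than in the one before, as were 9.97% of all genes.

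Day on the control diet alone was tested as a slope of log2 level on log2(day + 1) over the 5 control pools. Again limma called no gene (0%), with 1073 genes (7.18%) and 2 members at an unadjusted p under 0.05. Saa1 had a slope of -0.08 (SE 0.015, adjusted p = 0.677) and Reg4 a slope of 0.11 (adjusted p = 0.681). The larger slope of Reg3g, 0.28, had an adjusted p of 0.897.

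Likeness between levels is given as Pearson correlations over the 9 pools, a description, since the points share arrays, days and diet. Saa1 and Mptx1 had r = 0.92, Mptx1 and Ang4 0.90, Saa3 and Saa1 0.89, and Reg3b and Reg3g 0.94. Of all genes tested, those most like Mptx1 were Matr3, Clca1 and Gas6 (r between 0.980 and 0.984), and those most like Ang4 were Airn, Clca1 and Ssh2 (r between 0.955 and 0.967). Clca1 is a goblet cell secretory protein. Its diet difference was -0.22 log2 (adjusted p = 0.216 in limma). The genes most like Saa3 were Bche, Peli1 and Sptbn1 (r between 0.980 and 0.984). Those most like Reg3g were Nle1, Slc7a2 and Copz1 (r between 0.959 and 0.980).

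The other genes of the same defence and its controls were read from lists, 6 in all. Of their 68 genes tested, limma called 0 in the diet comparison, and 12 (17.6%) had an unadjusted p under 0.05, against 17.0% of all genes. In the late minus early comparison it also called 0, with 6 (8.82%) at an unadjusted p under 0.05 against 6.62% of all genes. In the control slope comparison it called 0, with 7 (10.3%) against 7.18%. Of 26 other secreted antimicrobial genes listed, 21 were measured and 15 tested. Of those 15, 7 were higher and 8 lower in heme pools, with a median log2 difference of -0.04. The lowest were Duoxa2 and Duox2, which together make hydrogen peroxide at the epithelial surface, at -0.50 (adjusted p = 0.269) and -0.45 (adjusted p = 0.233). The highest was the protease inhibitor Slpi at 0.62 (adjusted p = 0.310), followed by the oxidase Nox1 at 0.38 (adjusted p = 0.325). Slpi measured 5.64, 5.62, 6.53 and 7.29 log2 in heme pools of days 2, 4, 7 and 14 and between 5.53 and 5.77 in control pools, so its 2 late heme pools lay above all others. In the late minus early comparison 13 of the 15 were above 0 and 2 below, with a median of 0.47, while 42.2% of all genes were above 0 with a median of -0.03. This list shares Lyz2 with the macrophage markers, and S100a9 and Camp with the granulocyte markers. In the same comparison all 9 macrophage markers were above 0 (median 0.16), and of 4 granulocyte markers tested 3 were above and 1 below. The part of those cells was not tested. The highest of the 15 antimicrobial genes were Slpi at 1.31 (adjusted p = 0.524 in limma) and Pla2g2a at 1.09 (adjusted p = 0.454 in limma). The arrays read RNA, and whether a working Pla2g2a enzyme was made was not tested. Of the 15, 4 had an unadjusted p under 0.05 in limma.

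The other Reg family had 1 gene tested of 4, the pancreatic Reg1, at 0.53 (adjusted p = 0.729 in limma). Among 8 acute-phase genes tested, 4 were higher and 4 lower, with a median of 0.001. Steap4, an iron and copper reductase, stood at -0.31 (adjusted p = 0.211) and haptoglobin (Hp), the scavenger of free haemoglobin, at 0.14. Among 20 genes of interleukin-22, interleukin-6 and interleukin-17 signalling, 10 were higher and 10 lower, with a median of -0.03. The transcription factor Cebpd stood at -0.22 (adjusted p = 0.158), and Socs3, a feedback inhibitor induced by Stat3, at 0.26 (adjusted p = 0.431). Of 16 microbial sensing genes 7 were higher and 9 lower (median -0.01), and of 8 genes of the type 2 cytokine axis 3 were higher and 5 lower (median -0.08). The median over all genes tested was -0.002.

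**Figure D5:**
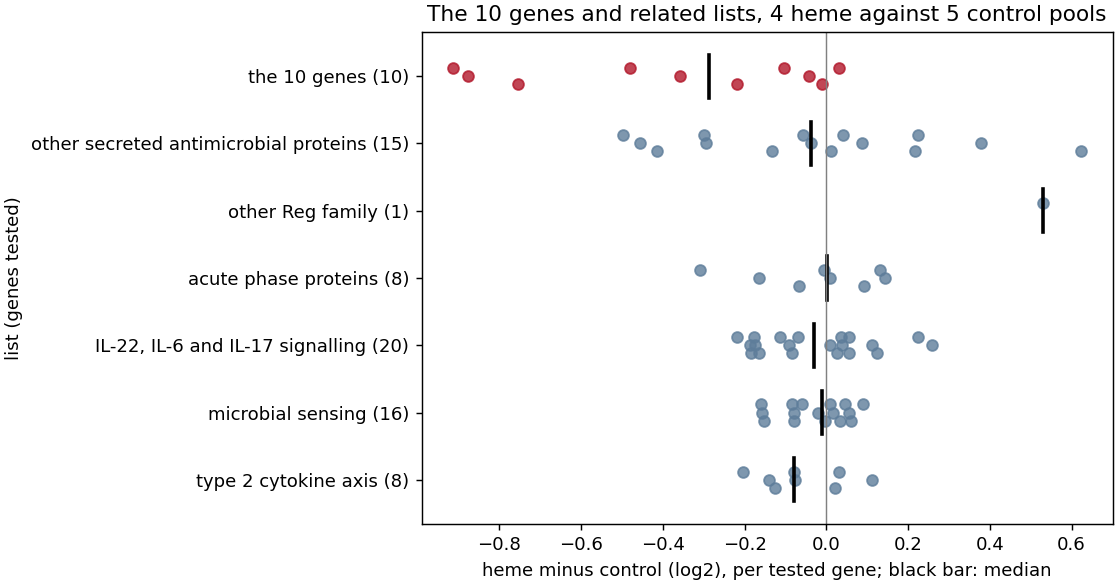
Heme minus control log2 difference (horizontal axis) of each tested gene, with 1 point per gene and a black bar at the median, for the 10 members and for each list of related genes. Of the genes drawn, Saa3 alone was called, and the lists' medians lie between -0.08 and 0.001 where more than 1 gene was tested.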

How the data were processed

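Each of the 9 pools was hybridised as biotin-labelled cDNA to 1 Affymetrix array, per the labels' protocols. The authors deposited log2 values for each probeset. Per the submitters' processing notes these came from RMA, for which the sources used here give no version. That method removes background, quantile-normalizes all arrays jointly and reduces probes to a probeset by median polish. The last step can leave identical values in several pools, as for Lcn2, Reg3g and Retnlb. Arrays carry no read depth, and precision is limited by their number.

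Of 35556 probesets, 21789 had 1 gene symbol in the platform annotation, 1621 had several and were left out, and 12146 stayed unnamed. Entrez IDs tied 21698 of the named ones to RefSeq genes of GRCm38.p6, with 0 symbols changed. Gene positions and promoter windows come from RefSeq on that build. Windows were matched for 9 of the 10 members.

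Tests used limma 3.58.1 in R 4.3.3 (lmFit, and eBayes with an intensity trend), with Benjamini-Hochberg adjustment over the 14953 genes. The code was tested on simulated data with independent noise, equal for all genes. Those data held no day effects or mixed tissues, so they cannot show how the tests behave under either. Tables and figures were made with Python 3.11.15 and matplotlib 3.10.9. Nothing says that pools share animals, so a p-value measures the spread between pools of different days. The labels tie a heme and a control pool to the same day of feeding. Their deviations from the diet means correlated at 0.65, -0.00, 0.33 and 0.17 on days 2, 4, 7 and 14. Heme and control pools of different days correlated between -0.45 and 0.42, so only the day 2 value lay outside that range. Both day 2 pools carried pancreatic RNA. The fit with day as a block is given as an alternative.

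All 10 members are given. Of each list, at most the 2 highest and 2 lowest tested genes and any called gene are named, and of the genes most like a member, at most 3. The members and lists were chosen with earlier results of these data known. Alternatives were the filter, the intensity trend, centring, the rule for several probesets, the day block, and leaving out pools or days.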

Additional observations from a re-analysis of the deposited data

Results flagged for a closer look

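In 20 groups checked (each member in the heme and in the control pools), 3 held a pool that stood apart by the ratio of its gap to the nearest pool over the group's range, where about 1 in 20 groups is flagged by chance. Reg3g in the heme pool of day 14 was highest, at 10.68 log2 against at most 9.20 in the other heme pools, with a ratio of 0.889 (critical value 0.829 for 4 pools). The control pool of day 14 was also the highest of its diet for this gene, at 11.14. Retnlb in the control pool of day 7 was lowest, at 8.65 log2 against at least 9.73 in the other control pools, with a ratio of 0.751 (critical value 0.710 for 5 pools). Lypd8 in the control pool of day 0 was highest, at 13.45 log2 against 13.41 in each of the other control pools, with a ratio of 0.835.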

How the results depend on the processing

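The number of genes called by limma in the diet comparison was 100 and ranged from 30 to 251 when 1 pool was left out, and it was 0 without both pools of day 7, where 1567 genes still had an unadjusted p under 0.05. The number of members called was 1. It was 0 without the intensity trend (Saa3 adjusted p = 0.0545), 0 with day as a replicate block (Saa3 adjusted p = 0.0826) and 0 without both pools of day 7 (Saa3 adjusted p = 0.326), and ranged from 0 to 1 when 1 pool was left out. The block changed no other member's call. The cause of these changes was not tested. Saa3, Saa1, Mptx1, Ang4, Lypd8 and Reg4 kept a negative diet difference under every alternative run. The values that turned sign all belong to uncalled results. With 1 pool left out, the diet difference ranged from -0.34 to 0.016 for Retnlb, -0.70 to 0.0025 for Reg3b, -0.37 to 0.45 for Reg3g and -0.076 to 0.071 for Lcn2. Without both pools of day 2 it was 0.011 for Retnlb and -0.10 for Reg3g, and with upper-quartile centring 0.021 for Lcn2. The late minus early difference ranged from -0.41 to 0.72 for Ang4, -1.69 to 0.26 for Reg3g and -0.029 to 0.56 for Lcn2. It was -0.27 for Ang4 as a slope on log2(day + 1), an alternative chosen after seeing the data, and 0.012 for Lypd8 with upper-quartile centring. The control slope ranged from -0.050 to 0.033 for Mptx1, -0.35 to 0.00036 for Ang4, -0.25 to 0.030 for Retnlb, -0.36 to 1.03 for Reg3b, -0.24 to 1.19 for Reg3g and -0.0067 to 0.053 for Lcn2. Lcn2 was not tested under the filter at the median of genes.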
